A study of Mus musculus with 13 samples.

Results

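PhenDC3-only origins are sites of replication initiation that were called in both replicates of CGR8 mouse embryonic stem (ES) cells grown with PhenDC3 and in no control replicate. They were found by merging the peaks of the 5 SNS-seq lists wherever these overlapped by at least 1 bp on the nuclear chromosomes, and by keeping the merged regions with a peak in both PhenDC3 lists and in none of the control lists. This left 18598 of 246934 merged regions (7.53%), or 29.9% of the 62119 regions with a peak in both PhenDC3 lists. SNS-seq sequences short nascent strands, the RNA-primed DNA made where a replication fork has just started. The controls were CGR8 ES cells kept for 48 h in 0.5% DMSO (3 SNS-seq and 3 RNA-seq replicates), and the treated cells received 10 μM PhenDC3 in the same amount of DMSO for 48 h (2 SNS-seq and 3 RNA-seq replicates). CGR8 is a single line, no genotype or transgene is named for either group, and the study's methods call the control SNS-seq replicates biological. For the PhenDC3 and RNA-seq replicates nothing in the sources says that they were separate cultures, so the spread between them may be technical. Each list was called by the authors against 1 RNase-treated SNS-seq library of the same condition, in which the RNA primer that protects nascent strands is removed.

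A G-quadruplex (G4) is a multi-stranded DNA structure that runs of guanines can form, and PhenDC3 is a small molecule that binds and stabilises G4. Many origins of mouse and human cells lie a short distance downstream of a G-rich repeated element that can form a G4, often at promoters and CpG islands, the CpG-dense and mostly unmethylated sequences at gene starts. An origin is licensed when the MCM helicase is loaded on it, and most licensed sites stay silent in any one cell cycle.

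The 5 lists were not alike before any comparison was made. They held 120882, 81211 and 79377 nuclear peaks in control replicates 1 to 3, and 144103 and 102400 in PhenDC3 replicates 1 and 2. From the peak names, replicate 2 of each condition went through an adaptor filtering step that replicate 1 of each condition and control replicate 3 did not, as the RNase-treated libraries also had. No read counts are given in the lists. The depth at a missing control peak is therefore unknown, and "only" refers to peak calls. With 1 PhenDC3 list left out, so that a single list chose the sites, the number was 36547 without replicate 1 and 71718 without replicate 2. The 3 classes set beside the PhenDC3-only origins below are 33405 common origins (peaks in both PhenDC3 lists and at least 2 control lists), 10116 origins with both PhenDC3 peaks and 1 control peak, and 18745 suppressed origins (at least 2 control peaks and no PhenDC3 peak). In all, 101678 regions were called in at least 2 replicates of a condition, and PhenDC3-only origins made up 18.3% of them. Those with at least 2 control peaks and 1 PhenDC3 peak were not set beside them. Shares are given with 95% Wilson intervals and differences between shares with 95% Newcombe intervals. Both cover counting error over sites only, since sites of the same lists are not replicates of a treatment.

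A G4 upstream of a short peak was the usual form of a PhenDC3-only origin. The 3 sites shown here each have a single predicted G4. They come closest to the medians of the PhenDC3-only origins with 1 G4 in strength and in G4 score, distance and length, among sites outside exons and promoters with a mostly unmasked peak, with 1 taken per chromosome. They are shown because they stand near the middle of the origins with 1 G4. Each is read from mm10 (GRCm38) on the strand that holds the G runs, from the G4 towards the peak, with the runs of at least 3 G of the G4 in capitals. All 3 are intergenic.
Typical origin A (chr6:102095077-102095349, minus strand): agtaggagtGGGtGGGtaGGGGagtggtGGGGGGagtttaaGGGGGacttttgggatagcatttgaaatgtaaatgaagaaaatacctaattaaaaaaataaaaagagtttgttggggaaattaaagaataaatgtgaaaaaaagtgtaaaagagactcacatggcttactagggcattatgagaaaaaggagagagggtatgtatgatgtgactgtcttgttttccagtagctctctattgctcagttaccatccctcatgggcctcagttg
Typical origin B (chr10:99212681-99212971, minus strand): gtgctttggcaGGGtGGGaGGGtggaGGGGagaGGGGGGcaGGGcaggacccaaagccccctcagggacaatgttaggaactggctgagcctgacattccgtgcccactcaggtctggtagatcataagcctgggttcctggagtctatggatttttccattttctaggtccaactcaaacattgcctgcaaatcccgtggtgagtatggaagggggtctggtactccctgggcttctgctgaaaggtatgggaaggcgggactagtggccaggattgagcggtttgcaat
Typical origin C (chr3:134165968-134166267, plus strand): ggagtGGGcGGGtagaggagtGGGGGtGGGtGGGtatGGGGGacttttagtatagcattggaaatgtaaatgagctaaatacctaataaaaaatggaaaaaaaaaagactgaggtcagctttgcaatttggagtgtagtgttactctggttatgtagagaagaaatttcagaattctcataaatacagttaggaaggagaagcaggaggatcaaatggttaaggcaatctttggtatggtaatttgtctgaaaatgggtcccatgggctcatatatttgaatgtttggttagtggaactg
Origin A, at chr6:102094994-102095189, had a fold enrichment over the RNase-treated library of 4.88 in PhenDC3 replicate 1 and 6.14 in replicate 2. Origin B, at chr10:99212592-99212800, had 5.13 and 3.66. Origin C, at chr3:134166089-134166443, had 3.74 and 4.16. In A and C the G4 is followed by nearly the same A-rich sequence, which is taken up below.

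The strongest PhenDC3-only origins looked different. Ranked by the lower of their 2 within-list percentiles of −log10 p, the 10 strongest included only 2 with a G4 by the rule used here, although 9 of them held a chain of at least 8 GG runs no more than 7 bp apart. Most of them are shown because their chains of GG runs differ from the G4 of the typical sites, again on the G-rich strand, with GG runs in capitals where no G4 was predicted and the runs of at least 3 G of the G4 in capitals at sites 3 and 9.
Strongest origin 1 (chr11:117451537-117451686, minus strand): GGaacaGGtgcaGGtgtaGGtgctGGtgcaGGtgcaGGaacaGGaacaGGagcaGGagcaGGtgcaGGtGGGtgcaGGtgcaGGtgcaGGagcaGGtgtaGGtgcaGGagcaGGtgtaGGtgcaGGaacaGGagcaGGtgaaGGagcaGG
Strongest origin 2 (chr11:88800902-88801007, minus strand): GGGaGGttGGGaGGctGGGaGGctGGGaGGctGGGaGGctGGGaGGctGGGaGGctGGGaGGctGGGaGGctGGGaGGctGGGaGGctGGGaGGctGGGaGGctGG
Strongest origin 3 (chr13:112174718-112174751, plus strand): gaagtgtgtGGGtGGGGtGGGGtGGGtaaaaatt
Strongest origin 5 (chr12:112206645-112206804, plus strand): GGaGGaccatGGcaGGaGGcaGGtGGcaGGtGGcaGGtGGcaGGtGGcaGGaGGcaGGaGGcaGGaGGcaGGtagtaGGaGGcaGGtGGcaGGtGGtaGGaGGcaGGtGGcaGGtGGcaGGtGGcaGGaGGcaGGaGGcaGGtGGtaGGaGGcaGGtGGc
Strongest origin 6 (chr17:49291129-49291244, minus strand): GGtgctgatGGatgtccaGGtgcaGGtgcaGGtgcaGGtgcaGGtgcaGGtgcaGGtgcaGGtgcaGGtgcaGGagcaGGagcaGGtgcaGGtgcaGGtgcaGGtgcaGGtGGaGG
Strongest origin 9 (chr3:87763899-87763954, plus strand): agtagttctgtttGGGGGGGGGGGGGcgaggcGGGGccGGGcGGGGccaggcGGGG
Origin 1, at chr11:117450870-117452384, is intergenic and had the highest fold enrichment of the 10 in PhenDC3 replicate 2, at 19.99, with 26.6 in replicate 1. Its 26 GG runs come in a short repeated unit, and origin 6 (chr17:49290915-49291218, intergenic, 8.45 and 9.45) repeats a unit of the same kind. Origin 2 (chr11:88800483-88801025, intergenic, 26.8 and 12.7) repeats another unit, which holds a run of 3 G. Origin 5 (chr12:112206645-112207273, 17.6 and 13.9) held the longest chain of the 10, with 82 GG runs. Origins 3 (chr13:112174825-112175320, intergenic) and 9 (chr3:87763982-87764232, in an intron of Pear1, a receptor of platelets and endothelium) are those with a G4. Others were origin 4 (chr7:12206159-12206437, intergenic), origin 7 (in an intron of the zinc finger gene Zfp516) and origin 8 (chr6:32434436-32434838, in an intron of Plxna4, a semaphorin receptor, with 66 GG runs). This is a rank by the values that chose the sites, over 10 sites, and is given with no test. Among the strongest 20 the count with a G4 was 8, among the strongest 100 it was 67, and over 10 groups of equal size by strength it lay between 78.3% and 83.6%. The strongest 10 common origins likewise held 1 with a G4, and 6 with a chain of at least 8 GG runs, and the strongest 100 held 56 with a G4. Among the strongest 10 origins with 1 control peak, 2 had a G4 and 9 had such a chain, the same counts as at PhenDC3-only origins.

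In strength PhenDC3-only origins were middling. The median fold enrichment was 5.61 in PhenDC3 replicate 1 (quartiles 4.40 and 7.11) and 5.03 in replicate 2 (3.96 and 6.22), and the median −log10 p was 15 and 12.8. Within their lists by −log10 p, their median stood at percentile 59.0 (replicate 1) and 42.9 (replicate 2), while common origins stood at 68.4 and 70.1. They made up 13.1% of the peaks of replicate 1 and 18.5% of those of replicate 2. Among them 337 (1.81%) were in the top 10% of both lists, while 2746 common origins (8.22%) were, and 5523 (29.7%) were above the median of both. The sites were chosen by the presence of peaks in these same lists, so the values describe the class and support no comparison.

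**Figure D1:**
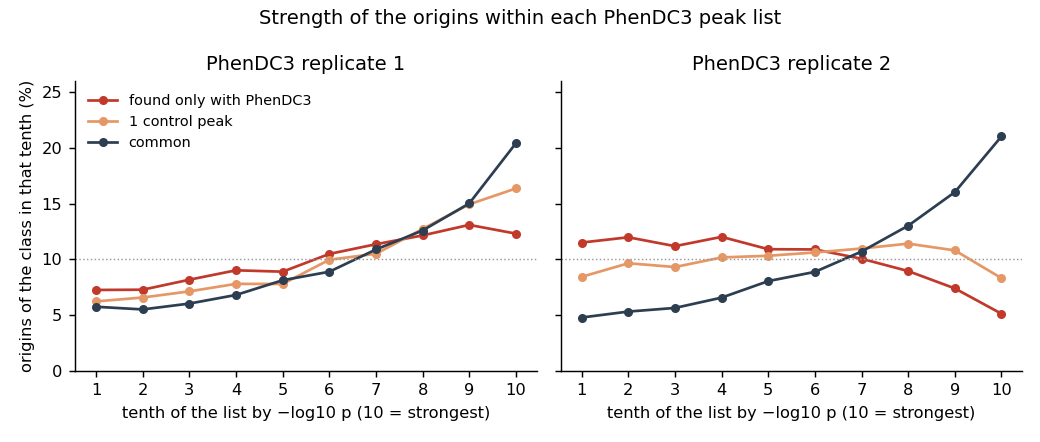
Share of the origins of each class (y axis, percent) that falls in each of 10 equal parts of a PhenDC3 peak list ranked by −log10 p (x axis, 10 is the strongest), with 1 panel for each PhenDC3 replicate and a line for each class; the dotted line marks 10%. PhenDC3-only origins put 12.3% in the top part of replicate 1 and 5.12% in that of replicate 2, where common origins put 20.4% and 21.0%.

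The merged regions were narrow, with a median width of 245 bp against 301 bp for origins with 1 control peak, 443 bp for common and 277 bp for suppressed origins. A common origin merges peaks of more lists than a PhenDC3-only origin, so this comparison of widths is partly fixed by the rule. In 96.9% each PhenDC3 list gave 1 peak, and the summits of the replicates lay a median of 29 bp apart (within 50 bp in 68.2%). The nearest control peak was a median of 5418 bp away. It was within 1 kb in 3521 (18.9%) and within 100 bp in 444. Just inside the rule, the 3 regions looked at touch a control peak without overlapping it, among them chr15:75216566-75217022 in an intron of Ly6g2 (fold enrichment 6.90 and 7.10) and chr15:99725471-99725926 in the promoter of Cox14 (5.34 and 5.34). How many touch one in all was not counted, and 33 (0.177%) lay within 10 bp of a control peak. The lowest −log10 p of a PhenDC3-only origin was 5.01, at chr1:35208685-35208936 and at chr16:35592182-35592599 in an intron of Sema5b, and 770 (4.14%) were under 6 in at least 1 list. Just outside the rule, chr10:117312264-117312696 had fold enrichments of 5.01 and 5.73 with PhenDC3 and was lost to a peak of −log10 p 5.05 in control replicate 1. Also outside, chr9:110446051-110446839 in an intron of Klhl18 had a fold enrichment of 24.8 in PhenDC3 replicate 1 and no peak in replicate 2. Regions called in 1 PhenDC3 list and nowhere else were common, with 52517 in replicate 1 and 16980 in replicate 2. No PhenDC3-only origin lay near Mir466n, a microRNA gene at chr2:10513741-10513834, where the nearest one was 142449 bp away and an origin with 1 control peak was 5740 bp away. RefSeq's copy of Mir466n may not be the one the study shows.

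Predicted G4 were about as frequent at PhenDC3-only origins as at common origins. They sat closer to the centre of the merged region, but not consistently closer to the summits of the peaks. A G4 (G4Hunter, a score of G-richness and G-skew, window 25, threshold 2) lay within 500 bp of the centre of 14987 PhenDC3-only origins, or 80.6% (80.0 to 81.1). The share was 78.7% of common origins, 81.3% of origins with 1 control peak and 44.0% of suppressed origins, and 18.9% of the genome's bases lie as close to a G4. The difference from common origins was 1.88 points (1.16 to 2.60). Without PhenDC3 replicate 2 the share at PhenDC3-only origins was 70.6%, the lowest of the 5 values with a list left out. Within 250 bp the shares were 52.3% and 42.0%, a difference of 10.4 points (9.47 to 11.3). Origins with 1 control peak stood between, at 47.9% (difference 4.42 points, 3.21 to 5.63). The widths of the classes differ as given above, and the part of width in these differences was not tested. The strongest G4 lay upstream of the centre, on the strand that holds its G runs, at 93.1% of G4-positive PhenDC3-only origins, 89.2% of common and 58.4% of suppressed origins. At each position, the G4 was most frequent at -237 bp from the centre (15.6%), at -279 bp in common origins (15.6%) and at -315 bp in suppressed origins (4.39%), where negative positions are upstream. Centred on the summit in PhenDC3 replicate 1 instead, the greatest frequency was at -209 bp in PhenDC3-only and -210 bp in common origins, and in replicate 2 at -227 and -217 bp.

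**Figure D2:**
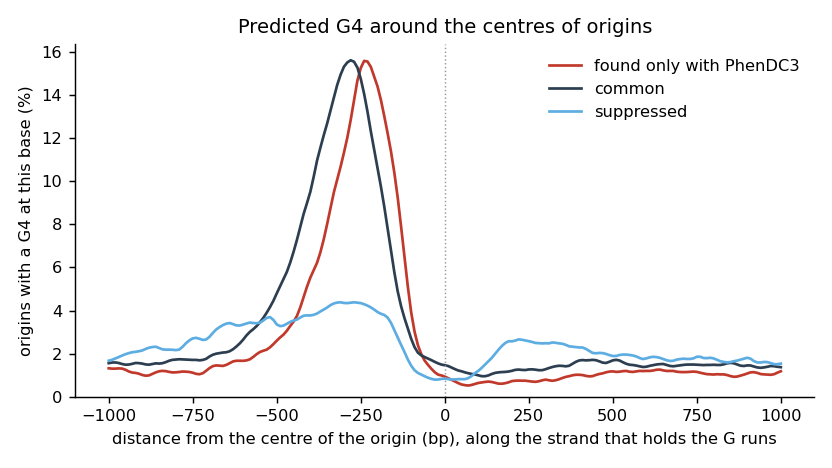
Share of origins with a predicted G4 over each base (y axis, percent) by distance from the centre of the origin in bp (x axis, along the strand that holds the G runs), with a line for each class. The peak of PhenDC3-only origins reaches 15.6% at -237 bp and that of suppressed origins 4.39% at -315 bp.

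Most PhenDC3-only origins with a G4 had just 1, at 74.5% against 66.4% of common origins (difference 8.14 points, 7.24 to 9.04). At least 3 were found at 4.32% and 9.20%. The class with 1 control peak stood nearer, with just 1 G4 at 72.1% (difference 2.48 points, 1.29 to 3.68) and at least 3 at 5.81%. The G4 of PhenDC3-only origins were close to those of common origins, with a median score of 2.52 against 2.56 and a median length of 42 against 45 bp. They held a CpG less often, at 38.4% against 47.3% (difference -8.93 points, -9.91 to -7.94), and the motif GGGCGGG at 12.3% against 16.4%. Origins with 1 control peak stood at 38.2% (difference 0.148 points, -1.16 to 1.45) and 12.4% (difference -0.121 points, -1.02 to 0.757), beside which the PhenDC3-only origins did not differ by more than the counting error. Within genes, the strongest G4 lay on the coding strand, the one that reads like the RNA, at 2890 of 6551 PhenDC3-only origins or 44.1% (42.9 to 45.3). The share was 44.3% (42.7 to 45.9) of origins with 1 control peak, 47.1% of common origins and 46.6% of suppressed origins. Only 3.39% of the 568806 predicted G4 of the genome lay within 500 bp of a PhenDC3-only origin.

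Of the 3611 PhenDC3-only origins without a G4, 2794 had one at the looser threshold of 1.5 and 817 had none. A chain of at least 8 GG runs, as at the strongest origins shown above, was present at 55.1% of the 3611, at 56.7% of G4-negative origins with 1 control peak (difference -1.59 points, -4.35 to 1.17), at 39.8% of G4-negative common origins (difference 15.3 points, 13.4 to 17.3) and at 31.95% of G4-negative suppressed origins. Across all origins of a class the order was the opposite one, with 60.5% of PhenDC3-only and 64.5% of common origins. In 1 kb windows taken across the genome it was 17.4%. The median fold enrichment barely separated origins with and without a G4, at 5.62 and 5.50 in replicate 1 and 5.06 and 4.95 in replicate 2.

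The sequence around the sites was poorer in CpG than at the other classes of origin, and slightly richer than in the genome at large. In the 1 kb around the centre, the GC content had a median of 47.2% at PhenDC3-only origins, 50.2% at common and 49.9% at suppressed origins, and 41.4% in windows across the genome. The ratio of observed to expected CpG had medians of 0.174, 0.218 and 0.271, and 0.158 across the genome. The composition of a CpG island (GC above 50% and a ratio above 0.6) was met at 209 PhenDC3-only origins, or 1.12% (0.982 to 1.29), against 2.67% of origins with 1 control peak (difference -1.55 points, -1.91 to -1.21), 9.58% of common origins (difference -8.45 points, -8.80 to -8.10), 21.1% of suppressed origins and 0.611% of genome windows. Over 2 kb from a TSS it was 0.289% and 2.37%. The share at PhenDC3-only origins was 1.71% without control replicate 2 and 1.71% without PhenDC3 replicate 2. Of 9 motifs counted on both strands in this window, GGGTGGGT was more frequent at PhenDC3-only than at common origins, at 29.9% against 23.6% (difference 6.36 points, 5.56 to 7.16), and stood at 29.6% of origins with 1 control peak (difference 0.361 points, -0.749 to 1.46), 9.71% of suppressed origins and 7.48% of genome windows. It was at 19.2% when PhenDC3 replicate 2 was left out and at 36.6% without replicate 1. GGGGAGGGG went the other way, at 17.2% against 22.0%, as did CGCGCG at 1.53% against 10.6%. GGGAGGGA (25.02% and 25.3%) and the telomere-like GGGTTAGGG (1.63% and 1.66%) differed by less than the counting error. TGTGTGTG was found at 22.7% and 20.7%, GAGAGAGA at 18.5% and 17.3%, GGAAGGAA at 14.4% and 13.8%, and GGAGGAGGA at 7.81% and 8.65%. GGGTGGGT can be part of a G4 as counted above, so these counts are not independent of the G4 shares.

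PhenDC3-only origins lay near gene starts less often than the other classes of origin, and more often than the genome's bases do. They were found in the 2 kb upstream of a TSS of a curated RefSeq transcript in 645 cases, or 3.47% (3.21 to 3.74), against 5.44% of origins with 1 control peak (difference -1.97 points, -2.49 to -1.46), 9.05% of common origins (difference -5.58 points, -5.98 to -5.17) and 18.6% of suppressed origins, while 2.13% of the genome's bases lie there. Coding exons held 2.22% and 3.90% and 5′ UTRs 0.269% and 0.937%. Introns held 40.2% and 40.5%, which did not differ by more than the counting error (difference -0.285 points, -1.16 to 0.595). Intergenic sequence held 52.6% and 44.3%, and makes up 59.3% of the genome. The median distance to a TSS was 32415 bp, against 20412 bp for common and 8820 bp for suppressed origins. They also stood more alone than common origins, with another origin within 7 kb at 51.0% against 62.1% (difference -11.0 points, -11.9 to -10.2) and none within 20 kb at 21.0% against 16.0%. Origins with 1 control peak stood between, at 56.4% (difference -5.37 points, -6.58 to -4.17) and 19.0%. By chromosome the density of PhenDC3-only origins was highest on 11 (10.4 per Mb) and 19 (9.67), with 1.49 per Mb on X and 5 sites in all on Y. They made up between 15.6% (X) and 21.3% (14) of the origins of each chromosome other than Y, where the share was 2.17%.

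**Figure D3:**
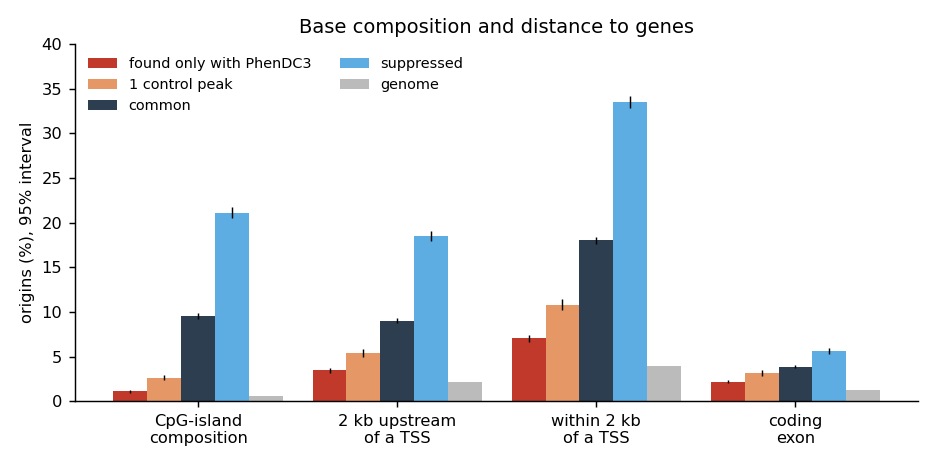
Share of origins (y axis, percent, bars with 95% Wilson intervals) with CpG-island composition, in the 2 kb upstream of a TSS, within 2 kb of a TSS and in coding exons (groups on the x axis), with a bar for each class of origin and for the genome. PhenDC3-only origins stand at 1.12%, 3.47%, 7.04% and 2.22% in that order, below the common origins at 9.58%, 9.05%, 18.0% and 3.90%.

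Typical origins A and C shared an A-rich sequence after the G4, and the 24 bases of it in origin C, shown here because they were used to search the genome, start 8 bases after the G4 of that site.
Stretch after the G4 (chr3:134166023-134166046, plus strand): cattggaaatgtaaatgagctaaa
With up to 4 mismatches it occurs 93288 times in mm10, and 99.9% of these start in bases that the reference masks as repeats. It reads like the 3′ end of mouse LINE-1 elements, retrotransposons that carry a G-rich tract there, but the matches were not set against a repeat annotation. The stretch lay within 500 bp of the centre of 2696 PhenDC3-only origins, or 14.5% (14.0 to 15.01), of 16.3% of origins with 1 control peak, of 10.7% of common origins, of 1.87% of suppressed origins and of 3.55% of the genome's bases. It was chosen after sequences of this class had been read, so these shares are given with no test. In 2483 of the PhenDC3-only origins the strongest G4 stood directly before it. The stretch lay upstream of the centre at 98.4% of those that had it, at a median of -245 bp, and 97.3% of them were G4-positive. The peaks themselves were less often repeats, with a median of 17.6% masked bases. GGGTGGGT was present at 84.4% of PhenDC3-only origins with the stretch and 20.7% of those without, and at 83.0% and 16.4% of common origins. Without these sites, the G4-positive share was 77.8% of PhenDC3-only and 76.4% of common origins. The median fold enrichment with and without the stretch was 5.63 and 5.61 in replicate 1, and 5.59 and 4.95 in replicate 2.

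Over all peaks of a list, the stretch was found at 5.92%, 5.88% and 8.56% in control replicates 1 to 3 and at 8.0% and 15.4% in PhenDC3 replicates 1 and 2. Control replicate 3 lay above PhenDC3 replicate 1, so the conditions overlap over all lists, and PhenDC3 replicate 2 stood apart from the other 4 lists. When PhenDC3 replicate 2 was left out, so that 1 list chose the sites, the share among PhenDC3-only origins was 7.42%, and without PhenDC3 replicate 1 it was 21.5%. The shares of peaks with a predicted G4 did not overlap between the conditions, with 57.2%, 63.6% and 63.5% of all peaks G4-positive in the controls and 71.1% and 77.6% with PhenDC3. Between lists of the same replicate number, which shared processing, both shares were higher with PhenDC3 (the stretch 5.92% to 8.0% in replicates 1 and 5.88% to 15.4% in replicates 2, the G4 57.2% to 71.1% and 63.6% to 77.6%). Control replicate 3 also lacked the filtering step. Beside PhenDC3 replicate 1, its share with the stretch was higher (8.56% and 8.0%) and its G4 share lower (63.5% and 71.1%). With 3 lists against 2 no permutation test can pass the threshold, and none was run.

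**Figure D4:**
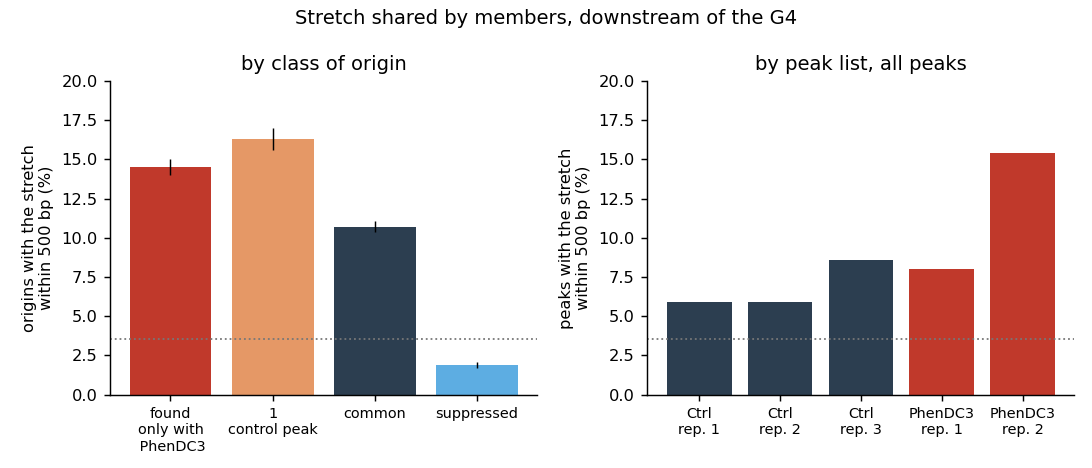
Share with the stretch within 500 bp (y axes, percent) for the 4 classes of origin (left, bars with 95% Wilson intervals) and for all peaks of each of the 5 lists (right, controls and PhenDC3 in different colours); the dotted line marks the 3.55% of the genome's bases within reach of a match. The bars run from 1.87% of suppressed origins to 16.3% of origins with 1 control peak, and from 5.88% in control replicate 2 to 15.4% in PhenDC3 replicate 2.

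RNA-seq of the same treatment was not used to choose the sites, so expression of the genes at them was tested. The 6 libraries held between 22232014 and 29486502 counts. All 8 ES cell markers examined were found in every library, between 55.9 (Utf1) and 1599 (Pou5f1) CPM, where CPM in this paragraph is scaled to the raw total of a library unless stated otherwise. These markers moved in opposite ways. Sox2, Nanog, Klf4 and Esrrb were higher in every PhenDC3 library than in any control. Scaled by relative log expression, as for the tests, Esrrb overlapped between the conditions (564 to 710 CPM in controls, 630 to 768 with PhenDC3). Neither Sox2 (edgeR adjusted p = 0.122) nor Esrrb (0.238) passed the test. Pou5f1 (1293 to 1599 CPM in controls, 1086 to 1212 with PhenDC3), Utf1 (149 to 260, 55.9 to 68.5) and Lin28a (370 to 474, 137 to 251) were lower. Zfp42 overlapped between the conditions. Summed over 12 markers of other lineages the level was 33.1 to 43.3 CPM in controls and 48.3 to 54.6 with PhenDC3, without overlap on this scale. The scaling by relative log expression used for the tests raises every control library and lowers every PhenDC3 library. This gap is therefore smaller on that scale and may not hold there. None was at 0 in any library, 7 of the 12 were above 1 CPM in all, and the endoderm gene Gata4 ranged from 7.17 to 28.9 CPM. The sum holds opposite moves. Every PhenDC3 library was above every control for the endoderm genes Gata4, Sox17 (2.55 to 4.59 CPM in controls, 6.34 to 8.69 with PhenDC3) and Foxa2 (1.08 to 1.67, 3.61 to 4.45). Every PhenDC3 library was below every control for the neural genes Pax6 (5.02 to 8.77, 1.16 to 3.13) and Neurod1 (5.08 to 6.38, 3.32 to 4.64) and the fibroblast gene Thy1 (3.95 to 5.53, 1.88 to 2.51). Their part in the results was not tested. Fewer cells of a type and less RNA per cell cannot be told apart in such bulk libraries. With edgeR's quasi-likelihood test and Benjamini-Hochberg adjustment over 13972 genes, 2518 genes (18.0%) were higher and 2617 (18.7%) lower with PhenDC3 at an adjusted p of at most 0.05. A TSS within 2 kb of a PhenDC3-only origin was found for 1350 genes, of which 824 were expressed enough to be tested. Of these 132 (16.0%) rose and 162 (19.7%) fell, with a median log2 fold change of -0.01 against 0.01 over all genes tested. Without PhenDC3 replicate 1, 102 fell (12.2%), beside 11.4% of all genes. At genes with no other origin within 2 kb of the TSS, 53 of 394 (13.5%) rose and 78 (19.8%) fell, with a median of -0.06. For common origins 19.95% rose and 18.8% fell, and for suppressed origins 19.7% and 18.0%. Genes at PhenDC3-only origins thus changed about as often as genes at large.

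By the rule for named genes, the 5 largest rises and 5 largest falls among these genes had no overlap between the conditions, a mean over both groups of at least 1 CPM and an adjusted p of at most 0.05. Ptk6, Nos3, Pax8 and Rerg were above 1 CPM on average only in the group where they were high. All p-values in this paragraph are edgeR's with Benjamini-Hochberg adjustment, and levels here and in what follows are CPM scaled to library sizes normalised by relative log expression, not per length, so they are comparable within a gene only. Hesx1, a homeobox repressor of the forebrain and pituitary, had 2.06, 2.74 and 1.64 CPM in the controls and 14.4, 13.3 and 11.7 CPM with PhenDC3 (log2 fold change 2.61, SE 0.21, adjusted p = 8.78e-05). Every PhenDC3 library was above every control, and the origin at chr14:26998349-26998693 has its centre at -1841 bp from its TSS. Hoxb9, a homeobox gene of the body axis, had 1.01, 1.14 and 0.908 CPM in the controls and 5.03, 7.74 and 4.87 CPM with PhenDC3 (log2 fold change 2.52, SE 0.26, adjusted p = 2.34e-04). It has 4 other origins within 2 kb of its TSS. Igf2, the imprinted fetal growth factor, had 22.0, 25.9 and 11.3 CPM in the controls and 70.7, 71.2 and 125 CPM with PhenDC3 (log2 fold change 2.17, SE 0.32, adjusted p = 0.00120), and its origin at chr7:142664745-142665043 is intronic, with 4 other origins within 2 kb of the TSS. With the replicate block Igf2 was not called (adjusted p = 0.0886). Control replicate 3 was lowest for Igf2 and PhenDC3 replicate 3 highest. Slc25a47, a mitochondrial carrier, rose with a log2 fold change of 2.21, and Ptk6, a tyrosine kinase, with 2.18 from levels under 1 CPM in every control. Slc9b2, a sodium and proton exchanger, had 9.19, 10.5 and 10.5 CPM in the controls and 0.798, 1.00 and 1.31 CPM with PhenDC3 (log2 fold change -3.27, SE 0.22, adjusted p = 5.50e-05). Its origin at chr3:135307311-135307611 has its centre at -239 bp from the TSS. Emb, a membrane glycoprotein of the immunoglobulin family, had 132, 127 and 131 CPM in the controls and 23.8, 22.6 and 29.8 CPM with PhenDC3 (log2 fold change -2.35, SE 0.13, adjusted p = 4.09e-05). All PhenDC3 libraries of Emb and of Slc9b2 were below all controls. Nos3, the endothelial nitric oxide synthase, fell by 2.65 on the log2 scale, and its origin holds no G4. Pax8, a transcription factor of thyroid and kidney, fell by 2.55, and Rerg, a Ras-related growth inhibitor, by 2.35.

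Origins at 5 of these genes are shown by their G4, which differ in the number and length of the G runs, with runs of at least 3 G in capitals.
Hesx1 origin (chr14:26998447-26998484, plus strand): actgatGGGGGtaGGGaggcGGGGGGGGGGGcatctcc
Igf2 origin (chr7:142664701-142664743, plus strand): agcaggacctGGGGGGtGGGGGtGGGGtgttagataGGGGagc
Slc9b2 origin (chr3:135307602-135307656, minus strand): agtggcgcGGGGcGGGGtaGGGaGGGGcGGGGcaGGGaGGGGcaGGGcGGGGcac
Pax8 origin (chr2:24475661-24475705, plus strand): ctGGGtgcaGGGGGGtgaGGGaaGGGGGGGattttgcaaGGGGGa
Emb origin (chr13:117220962-117220993, plus strand): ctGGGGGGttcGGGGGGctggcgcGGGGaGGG
In all, 110 genes with a TSS within 2 kb of a PhenDC3-only origin rose (13.3% of those tested) and 146 fell (17.7%) with no overlap between the libraries and at least 1 CPM, beside 16.0% and 17.3% of all genes tested. The change was above 1 on the log2 scale in 62 called genes (7.52%) and below -1 in 53 (6.43%), beside 7.87% and 5.84% of all genes. Fold enrichments at these origins were 10.2 and 6.42 for Hesx1, 4.77 and 4.43 for Igf2, 5.70 and 4.53 for Slc9b2, 7.01 and 7.59 for Pax8 and 5.08 and 4.95 for Emb, in PhenDC3 replicates 1 and 2.

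**Figure D5:**
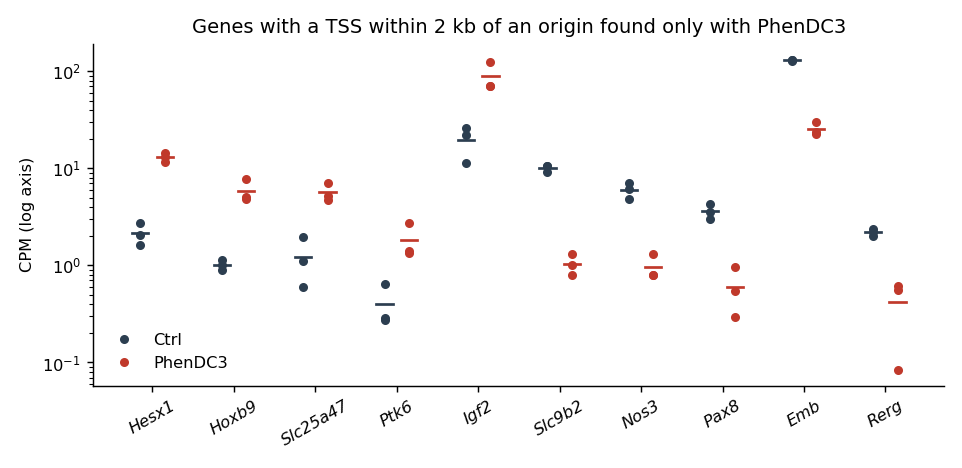
Expression of the 10 named genes (x axis) in CPM on a log axis (y axis), with a point for each of the 3 control and 3 PhenDC3 libraries and a bar at the mean of each group. The first 5 genes lie higher and the last 5 lower in every PhenDC3 library than in any control, from Hesx1 (2.15 to 13.1 CPM on average) to Slc9b2 (10.0 to 1.04 CPM).

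Genes with PhenDC3-only origins in the transcribed region rose more often than genes at large, as did genes that held other origins, and the share moved with gene length. PhenDC3-only origins lay within 5172 genes, of which 3562 were tested, and 835 of these rose (23.4%) while 558 fell (15.7%), with a median log2 fold change of 0.12, beside 18.0% and 18.7% of all genes tested and a median of 0.01. Genes that held origins with 1 control peak (23.0% and 16.2%) or common origins (21.8% and 17.5%) had shares close to these. Of the 140 tested genes with at least 5 such origins, 47 rose (33.6%) and 15 fell (10.7%), with a median of 0.30. With the tested genes cut by length into 5 equal groups, in the longest group 28.8% rose with a PhenDC3-only origin and 25.3% without. In the shortest group, up to 7.08 kb, it was 14.5% and 11.6%. In the 3 groups between, from shorter to longer, the shares were 13.5% and 13.6%, 20.3% and 15.8%, and 21.3% and 20.4%. Long genes rose more often whether or not they held such an origin. Per Mb of gene the density was 7.15 in genes under 1 CPM, 9.42 from 1 to 10, 8.72 from 10 to 100 and 7.19 at 100 CPM or more. Suppressed origins went from 6.35 to 17.1 per Mb over the same steps. The genes with the most PhenDC3-only origins were long. Camta1, a calmodulin-binding transcription activator, had 18, and its expression was 34.5, 28.7 and 39.0 CPM in the controls and 33.7, 31.9 and 41.1 CPM with PhenDC3 (log2 fold change 0.06). Trpm3, a cation channel, had 16 and was too low to be tested. Tenm4 (a teneurin) and Wwox (an oxidoreductase at a fragile site) had 15 each, with log2 fold changes of 0.45 and 0.21 that did not pass the test. With the replicate number as a block, Tenm4 was called (adjusted p = 0.00366, edgeR). Sorcs2, a sorting receptor, had 13 and was higher with PhenDC3 (log2 fold change 0.96, edgeR adjusted p = 0.0239). The Sorcs2 call was lost without control replicate 1 (adjusted p = 0.0842), control replicate 2 (0.0660) or PhenDC3 replicate 3 (0.0957).

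In the 15 genes of a pluripotency list, 6 rose and 4 fell, beside 18.0% and 18.7% of all genes tested, with a median log2 fold change of 0.21 (all genes 0.01), and 5 held a PhenDC3-only origin. Common origins lay in 8 of the 15 or within 2 kb of their TSS. Of all 26178 annotated genes, 5172 held a PhenDC3-only origin in the transcribed region. The 4 that fell, among them Pou5f1 (log2 fold change -0.45, edgeR adjusted p = 0.0113), held no PhenDC3-only origin. Nanog, a core transcription factor of ES cells, had 491, 474 and 466 CPM in the controls and 1183, 1045 and 1109 CPM with PhenDC3 (log2 fold change 1.22, edgeR adjusted p = 1.01e-04). All PhenDC3 libraries exceeded the controls, and the origin at chr6:122713958-122714217 lies in the 3′ UTR and has no G4. Tbx3, a T-box factor, had 116, 131 and 92.1 CPM and 403, 443 and 354 CPM (log2 fold change 1.82). Tfcp2l1, a transcription factor of naive ES cells, had 245, 212 and 360 CPM and 807, 687 and 1020 CPM (log2 fold change 1.62). The origins in Tbx3 and Tfcp2l1 lie in an intron and a coding exon. Esrrb and Sall4 held 2 origins each and had log2 fold changes of 0.21 and 0.08 that did not pass the test, although Esrrb did with the replicate block (adjusted p = 0.0437, edgeR). Among 28 genes of origin licensing and firing, 1 rose and 8 fell, beside the same 18.0% and 18.7%, with a median of -0.22. Of the 28, 2 held a PhenDC3-only origin, and common origins lay at 8, counted in the same way. Mcm2, a subunit of the MCM helicase, had 443, 424 and 617 CPM in the controls and 383, 295 and 375 CPM with PhenDC3 (log2 fold change -0.50, edgeR adjusted p = 0.0476). The Mcm2 call was lost in every fit that left out a library other than control replicate 2, with adjusted p from 0.0666 to 0.140. Its intronic origin at chr6:88884062-88884296 was among the stronger ones, with fold enrichments of 12.5 and 6.78. Cdc7, the kinase that fires licensed origins, held 1 and had a log2 fold change of -0.16. Of 12 genes in a list drawn up for G4 helicases, 0 passed edgeR's test after adjustment, beside 18.0% of all genes higher and 18.7% lower. Whether each of them acts on G4 was not examined. Among the 12, 4 had an unadjusted p under 0.05, a mark that at least those shares of all genes meet. DESeq2 called 3, beside 16.1% of all its tested genes higher and 16.9% lower. PhenDC3-only origins lay in 3 of the 12, namely Blm (2 origins, log2 fold change -0.05), Recql (1, -0.09) and Rif1 (1, 0.38), and common origins lay at 7 of the 12. Rif1 was called with the replicate block (edgeR adjusted p = 0.00121) and without control replicate 3 (0.0369). The G4 of the origins in Tbx3 and Mcm2 are shown because these genes were called and lie in lists tied to the cells and to origins, with runs of at least 3 G in capitals.
Tbx3 origin (chr5:119675335-119675372, plus strand): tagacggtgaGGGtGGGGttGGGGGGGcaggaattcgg
Mcm2 origin (chr6:88884329-88884370, minus strand): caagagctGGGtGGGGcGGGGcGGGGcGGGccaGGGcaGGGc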

How the data were processed

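SNS-seq (3 control and 2 PhenDC3 replicates) and RNA-seq (3 of each) of CGR8 mouse ES cells were re-analysed from deposited files. For SNS-seq, per the labels and the study's methods, the authors trimmed reads with cutadapt (1.9.1), mapped them to mm10 with Bowtie2 (2.2.5) and called peaks in each replicate with MACS2 (2.1.0) against the RNase-treated library, keeping those within or touching a broad region from SICER. In the deposited lists stand each peak's fold enrichment, a ratio over that library, and the −log10 p-value of the authors' caller. RNA-seq reads were mapped by the authors with TopHat2 (2.1.1) and Bowtie2 (2.2.9), and the deposited counts per gene, made with HTSeq (0.6.1p1), are raw. The strand setting of the counting is not given in the sources used here, so reads of overlapping genes, such as Igf2 and an antisense gene, cannot be told apart. The authors' edgeR (3.16.5) table of pseudo-counts was not used, nor was their DESeq2 (1.14.1) table, which holds their own fold changes and p-values.

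Peaks were merged and classified by presence. The centre of an origin was the middle of its merged region. Both strands of mm10 were searched for G4 with G4Hunter, or with Quadparser as an alternative (runs of at least 3 G, loops up to 7 bases). Promoters were the 2 kb upstream of TSS of 45756 curated RefSeq transcripts, and sequences were read from the RefSeq copy of GRCm38. Genes were tested with edgeR (4.0.16, R 4.3.3; quasi-likelihood, robust fit, relative log expression, filterByExpr) with Benjamini-Hochberg adjustment over all genes tested. The RNA-seq precision was set by 3 libraries a group of 22232014 to 29486502 counts. Scripts were tested on simulated data. Python 3.11.15 was used for the rest. The regions named were the 10 strongest, those just inside and outside the rule, and Mir466n, except 1 of the strongest that is not reported here. The genes named were the 5 largest rises and 5 largest falls at a TSS within 2 kb, the 5 genes with the most origins, and listed genes that hold an origin. The origins, lists and tests were chosen with earlier results of these data known. Alternatives were the overlap, the peaks used, the distance to a control peak, the G4 prediction and its distance, the centre, the promoter, each library left out, TMM, no filter, a replicate block and DESeq2 (1.42.0).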

Additional observations from a re-analysis of the deposited data

How the results depend on the processing

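The number of PhenDC3-only origins fell to 9344 with peaks above the median −log10 p and to 10351 with equal numbers of peaks per list, and ran from 20635 to 71718 when 1 list was left out. It was 15077 with no control peak within 1 kb and 18283 with an overlap of 50% of the shorter peak. The G4-positive share was 82.0% with peaks above the median, 95.6% at a G4Hunter threshold of 1.5 (common origins 93.1%), 74.98% with Quadparser (73.2%), 52.3% within 250 bp (42.0%) and 77.8% without sites that had the shared stretch (76.4%), and 70.6% to 81.0% with 1 list left out. The promoter share was 2.53% with no control peak within 1 kb, 4.72% with peaks above the median, 4.13% with equal numbers, 3.92% without the stretch, 7.04% on both sides of the TSS (common origins 18.0%) and 2.95% to 4.14% with 1 list left out. The share of CpG-island composition ranged from 0.743% to 1.81% over 9 alternatives. With 6 mismatches the stretch lay at 20.6% of PhenDC3-only and 14.9% of common origins. The alternatives on the stretch and on these added shares were chosen after seeing the data.

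No paired analysis was possible because the SNS-seq results come from no test, and the lists that shared processing are set side by side in the report instead. For RNA-seq, samples with the same number deviated together with correlations of 0.0904, 0.544 and 0.405. Whether the numbers pair the samples was not settled, and the main test did not use them as pairs. With the replicate block, 191 genes at PhenDC3-only origins rose (23.2%, all genes 27.2%) and 224 fell (27.2%, all genes 26.4%). Igf2 was no longer called (adjusted p = 0.0886, edgeR), and Tenm4 (0.00366), Esrrb (0.0437) and Rif1 (0.00121) were. The block changed the call of no other named gene. Without the block, the number that rose was 127 with TMM, 132 with no filter and 136 with DESeq2, and 93 to 131 with 1 library left out. The number that fell was 165, 157 and 165, and 102 to 165. The sign turned with 1 library left out, both in genes that were not called: the log2 fold change of Camta1 was -0.050 without control replicate 2 and -0.054 without PhenDC3 replicate 3, and that of Blm was 0.17 without control replicate 3 and 0.07 without PhenDC3 replicate 2 (range -0.23 to 0.17). The cause of these moves was not tested. Peak lists without counts do not tell a missing origin from one below the caller's threshold.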
